A study of Salmo salar with 8 samples.

Results

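The transcripts described here are those of the immunoglobulin chains and of the B-cell receptor in adherent head kidney leukocytes (HKLs) of Atlantic salmon. A probe was taken when the symbol it carries in the study's list of probes that differ between Day 1 and Day 5 HKLs begins with IGH, IGK or IGL, or is CD79A or FCRL5. This rule gave 78 of the 43689 probes of the array, under 12 symbols, out of 2139 listed probes used here. In that list 77 of the 78 probes stand as lower and 1 as higher at Day 5. The members were thus chosen by their difference between the days, and every value of that difference below describes them and was not tested. The heavy chain symbols were IGHA2 (18 probes), IGHM (15), IGH (2) and IGHG1 (1). The light chain symbols were IGKC (16), IGLL1 (12), IGLL5 (5), IGLC (3), IGLC1 (1) and IGKV1D-39 (1), and the receptor symbols were CD79A (1) and FCRL5 (3).

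An antibody is built from paired heavy and light chains. On the surface of a B cell it forms the B-cell receptor together with CD79A and CD79B, which carry the signal of bound antigen into the cell, and plasma cells secrete the same chains in bulk. The head kidney is the organ in which the B cells of teleost fish form, and it also houses plasma cells. Teleosts make the heavy chain classes IgM, IgD and IgT and have neither IgA nor IgG. The symbols *igha2*, *ighg1*, *igkc* and *igll1* name the closest protein in a database, and which salmon chain each probe measures was not settled here. Classes are therefore called IgM-named, IgA-named, kappa-named and so on below.

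HKLs of 4 untreated fish kept in seawater were enriched on a density gradient and seeded in plates. Cells that had not attached were rinsed off, and RNA was taken from the attached cells at 24 h (Day 1) or at 120 h (Day 5) of culture. A fish is represented by 1 sample on each day, and both groups hold only cells that adhered. The age of the fish is not given in the sources used here. An array carried 1 sample in Cy5 beside a Cy3-labelled reference pool of all samples, dyes were not swapped on any of the 8 arrays, and every value below is a log2 ratio of sample over pool unless it is called a level. A Fish 5 was left out by the authors and was not analysed here. These are bulk samples of mixed cells, in which fewer B cells and less immunoglobulin RNA per B cell cannot be told apart.

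Of the 43689 probes, 38695 were measured on at least 6 arrays and were tested with limma, and 784 passed an adjusted p of 0.05 (422 higher and 362 lower at Day 5). The median change over all tested probes was -0.00 on the log2 scale. A limit was set at 2 SD above the mean of an array's negative control spots and was exceeded in Cy5 by 40.4% to 51.3% of the probes of an array. By the folder of their scan images, taken here to stand for the slide, the arrays lay on 3 slides. Both arrays of Fish 1 shared a slide, as did both arrays of Fish 3, whereas those of Fish 2 and of Fish 4 lay on different slides. The Day 5 arrays of Fish 2 and of Fish 4 lay together on a slide without any Day 1 array used here. Slide and day are therefore partly confounded. The negative controls had their lowest mean Cy5 intensity (36.8) on the Day 1 array of Fish 1 and their highest (458) on the Day 5 array of Fish 1, and the former array was read from another scan image than the others.

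Immunoglobulin chain transcripts were lower in Day 5 than in Day 1 HKLs under each of the 10 chain symbols, from 2.14-fold for *iglc1* to 5.08-fold for *iglc*. The median change of the 77 tested member probes was -1.64, a 3.13-fold lower ratio at Day 5. Of the 77, 76 were lower and 1, an *fcrl5*-named probe, was higher. The 73 tested immunoglobulin chain probes ranged from -2.44 to -0.80, with an SD of 0.36 over probes. Their median change was -1.43 in Fish 1, -1.73 in Fish 2, -1.82 in Fish 3 and -1.72 in Fish 4. The SD of these medians over fish was 0.17. For single chain probes, the SD of the change over fish had a median of 0.547 (64 probes measured on all arrays). A median over many probes varies less than 1 probe, so 0.17 is not set against the SD over probes. The pairs that shared a slide (Fish 1 and Fish 3) gave a median of -1.57 and the pairs on different slides (Fish 2 and Fish 4) one of -1.79. In the latter pairs the change of day is also a change of slide.

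The direction was the same in nearly every fish. A ratio lower at Day 5 in every fish with both days was found for 75 of the 77 members, and for 14.4% of all tested probes. Day 1 and Day 5 samples did not overlap, with Day 5 lower, for 69 members and for 5.97% of all tested probes. The threshold of the test was passed by 53 members with lower and 1 with higher ratios, against 0.936% and 1.09% of all tested probes, and since the rule used this contrast nothing is read from these counts. No probe of the array passed in limma (0 probes) when the background was subtracted plainly or not corrected at all, although 4217 and 4393 probes had an unadjusted p under 0.05. With slide as a fixed block 2 members passed, and without Fish 1, 2, 3 or 4 in turn 48, 36, 23 and 18 passed as lower. In each of these fits every tested member but C203R104 was lower. The exceptions to a lower ratio in every fish were the *fcrl5*-named probe C203R104 and the *ighm*-named probe C121R005, whose change in Fish 1 was 0.05.

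**Figure D1:**
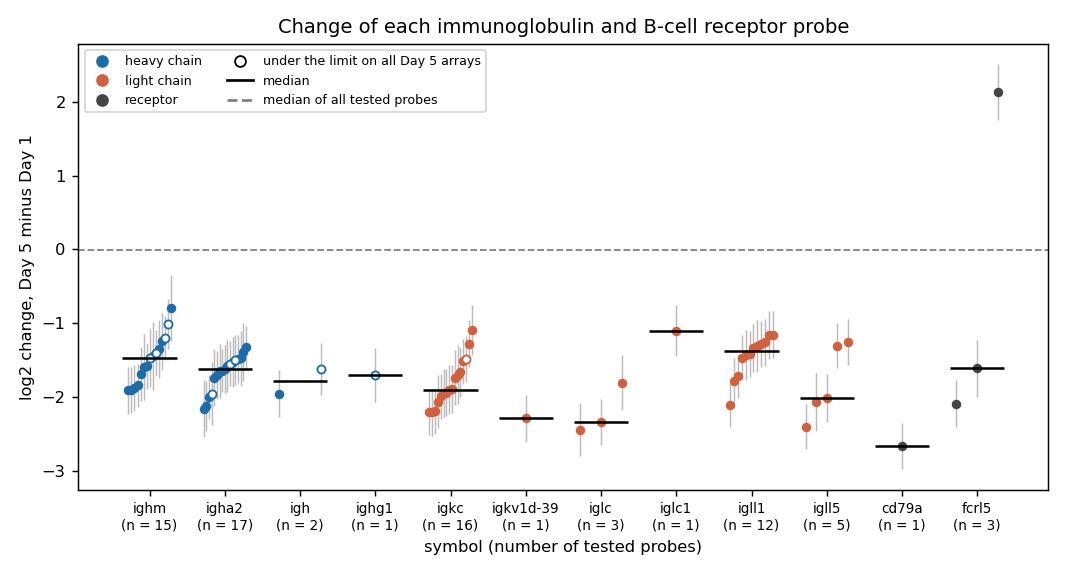
Fitted log2 change (Day 5 minus Day 1) of the 77 tested probes by symbol, with bars for the standard error of the fit (2 to 4 fish with both days) and a black line for the median of a symbol. All probes but 1 lie below the median of all tested probes (dashed), between -2.66 and -0.80, and open circles mark the 10 probes under the limit on all Day 5 arrays.

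The fitted changes varied within a symbol as well as between symbols. Of the sum of squares of the changes over the 73 immunoglobulin chain probes, 32.0% lay between the 10 symbols and 68.0% within them. The SD over these probes, 0.36, was near the median standard error of their fitted changes, 0.33. Differences between probes of a symbol are thus not told apart from error of the fit, and neither share was tested. Probes with a higher Day 1 level (log2 Cy5 intensity) tended to have lower changes, with a Spearman correlation of -0.47. It was -0.48 over the 49 of them above the limit on all arrays. Level and change share the Day 1 samples, and the part of level in the order of symbols was not tested. The change of a single probe also varied between fish, with a median SD over the 4 fish of 0.547 for the 68 members measured on all arrays and of 0.611 for all 26008 such probes. Within a day, the SD of the log2 ratio over the 4 fish had a median of 0.41 at Day 1 and 0.48 at Day 5 for the members, and of 0.42 on both days for all tested probes.

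Most of these transcripts remained measurable at Day 5. At Day 1, 74 of the 77 tested members were above the limit on all 4 arrays, and 52 were above it on all 8 arrays, against 33.5% of all tested probes. The 52 included *cd79a*, both *fcrl5*-named probes that were lower at Day 5, all 12 *igll1*-named probes and all 3 *iglc*-named probes. Another 10 members, 9 of them heavy chain probes, were at or under the limit on all 4 Day 5 arrays, and their Day 5 level is not told apart from background. Their mean Cy5 levels as measured were 2.06-fold (the *ighm*-named probe C180R133) to 3.66-fold (the *igha2*-named probe C134R119) lower at Day 5. With these probes at the difference of their mean levels the median over the members was -1.62 in place of -1.64.

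At the other end of the scale, 5 of the 624 spots of the members were saturated in at least 1 channel. The *igha2*-named probe C061R085 had 3 such spots and is the 1 member that was not tested. Its levels (log2 Cy5 intensity) were 15.4, 15.5, 15.4 and 15.4 in Day 1 samples and 14.1, 13.3, 13.9 and 13.03 in Day 5 samples of Fish 1 to Fish 4, so that the days did not overlap. Its change was -1.74 (SE 0.29) when saturated spots were kept at their value, within the range of the other IgA-named probes.

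Heavy chain probes were lower at Day 5 under both names that had many probes. The IgM-named probes (15 tested) had a median change of -1.47, or 2.78-fold, and the IgA-named probes (17 tested) one of -1.62, or 3.08-fold. In mammals the mu chain is the heavy chain of IgM, the first class that a B cell makes, and the alpha chain is that of IgA. The SD over probes was 0.33 and 0.25, and the medians differed by 0.15. Probes are not replicates, and the values of this difference in each fish are given below.

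The median *ighm*-named log2 ratio was 0.55, 0.27, 0.39 and 0.23 at Day 1 (Fish 1 to Fish 4) and -0.65, -1.42, -1.30 and -1.38 at Day 5. The days did not overlap, and the Day 5 sample of Fish 1 stood above the other Day 5 samples. The median *igha2*-named log2 ratio was 0.41, 0.51, 0.39 and 0.10 at Day 1 and -0.62, -1.39, -1.44 and -1.58 at Day 5, again with Fish 1 highest at Day 5.

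Within fish, the IgM-named median exceeded the IgA-named by -0.08, 0.20, 0.00 and 0.08 in Fish 1 to Fish 4, a mean of 0.05 ± 0.12 (SD, n = 4). The direction of this difference was not fixed. It was -0.12 over the 6 IgM-named and 9 IgA-named probes above the limit on all arrays, -0.00 without Fish 2, and -0.26 on the authors' processed values.

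**Figure D2:**
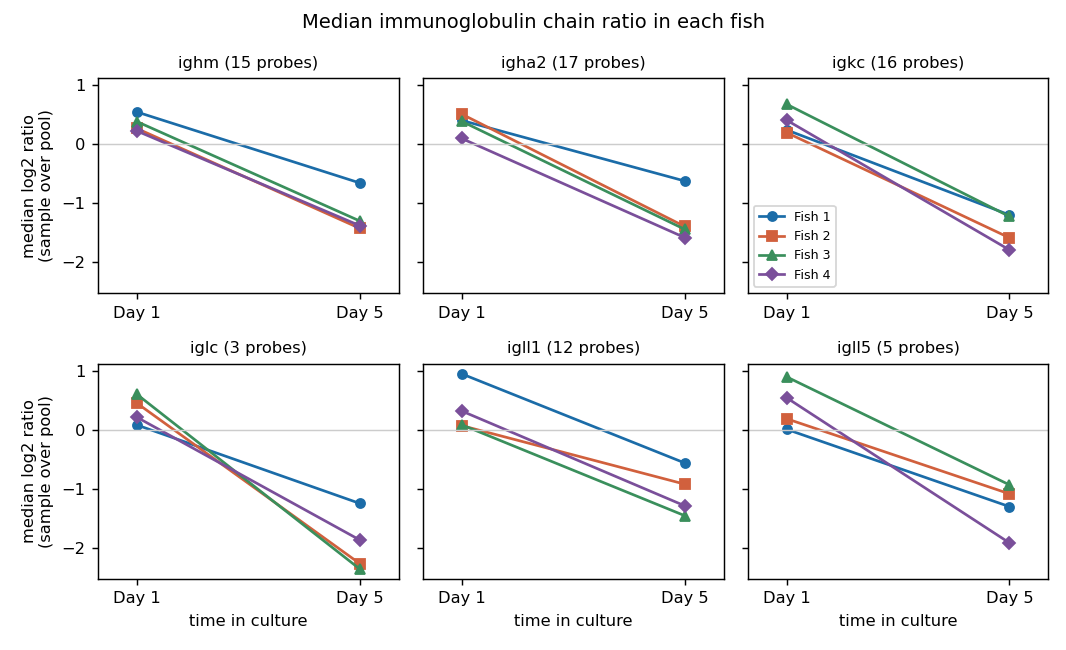
Median log2 ratio of sample over pool for the probes of 6 symbols at Day 1 and Day 5, 1 line per fish. Each line goes down. Fish 1 ends above the other fish at Day 5 for *ighm* (-0.65), *igha2* (-0.62), *igkc* (-1.20), *iglc* (-1.25) and *igll1* (-0.56) but not for *igll5*.

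Single heavy chain probes were lower at Day 5 under both names, and the upper end of the *ighm* range was a probe measured on both days in only 2 fish. The brightest *ighm*-named probe, C205R051, had log2 ratios of 0.62, 0.47, 0.49 and 0.14 at Day 1 and of -0.76, -1.90, -1.66 and -1.57 at Day 5 in Fish 1 to Fish 4. Its change was -1.90 (SE 0.31). The brightest *igha2*-named probe that was tested, C012R159, had log2 ratios of 0.48, 0.27, 0.48 and 0.16 at Day 1 and of -1.42, -1.61, -1.59 and -2.0 at Day 5. Its change was -2.0 (SE 0.29), and all fish gave nearly the same difference for it, from -1.87 to -2.16. The largest and smallest *ighm*-named changes were -1.91 (SE 0.32, C055R054) and -0.80 (SE 0.45, C106R160, measured on both days in 2 fish). For *igha2* they were -2.16 (SE 0.39, C264R117, measured on both days in 3 fish) and -1.32 (SE 0.29, C031R144). The probe C106R160 had the smallest change of all members and overlapping days.

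The remaining heavy chain symbols had 3 probes. The *igh*-named probe C125R032 had log2 ratios of 0.57, 0.50, 0.18 and 0.01 at Day 1 and of -0.87, -1.92, -2.05 and -1.71 at Day 5, a change of -1.95 (SE 0.31). The *igh*-named probe C149R116 and the *ighg1*-named probe C228R076, which carries the name of a mammalian gamma chain, were under the limit on all Day 5 arrays. Their fitted changes were -1.62 (SE 0.35) and -1.70 (SE 0.37). No heavy chain symbol was higher at Day 5, but every heavy chain probe here was listed as lower, so nothing is read from this.

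The IgM-named and IgA-named probes also lay side by side in the design of the array. Of 31 probes with consecutive design numbers, 13 were members, namely 8 named *ighm*, 4 named *igha2* and 1 named *igh*. Another 3 probes of the run were listed but were not members. In the same run, 15 probes were not in the study's list, and their gene names are not known here. Of these 15 unlisted probes, 13 were tested, 11 had a lower ratio at Day 5, and 5 were lower in every fish. Among all tested probes, 50.4% were lower and 14.4% were lower in every fish. The threshold was passed by 0 of the unlisted probes. Their changes ran from -2.01 to 0.13 with a median of -0.57, nearer to 0 than the members of the same run, which were listed for their difference.

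Light chain probes were lower by a median of -1.73 (38 tested), 3.31-fold, against -1.60 (35 tested), 3.02-fold, for heavy chain probes. The heavy chain median minus the light chain median was 0.32, -0.03, 0.09 and 0.11 in Fish 1 to Fish 4, a mean of 0.12 ± 0.15 (SD, n = 4). The spread over fish was larger than this mean, and the difference was -0.09 on the authors' processed values, so that no order of heavy and light chains, which pair in 1 antibody, held across fish and processing.

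Among light chains, kappa-named probes (17 tested) had a median of -1.90 and lambda-named ones (4 tested) of -2.08, while *igll1*-named probes (12 tested) had one of -1.38, or 2.60-fold. The kappa and lambda constant regions are the parts of the light chain shared by all antibodies of that isotype in mammals, and IGLL1 is in mammals a part of the surrogate light chain of B-cell precursors. The *igkc*-named median change minus the *igll1*-named one was 0.03, -0.70, -0.13 and -0.61 in Fish 1 to Fish 4, a mean of -0.35 ± 0.36 (SD, n = 4). It was below 0 in 3 of 4 fish, and the spread over fish was as large as the mean.

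The brightest *igkc*-named probe, C194R075, had log2 ratios of 0.35, 0.41, 0.09 and 0.53 at Day 1 and of -0.76, -1.30, -1.24 and -1.38 at Day 5, a change of -1.52 (SE 0.31). The days did not overlap. The *igkc*-named changes ran from -2.21 (SE 0.31, C056R121) to -1.10 (SE 0.34, C225R121), and for the latter the days overlapped. The *igkv1d-39*-named probe C009R156, named after a variable segment of the human kappa locus, had log2 ratios of 0.53, 0.21, 1.08 and -0.31 at Day 1 and of -1.71, -1.95, -1.96 and -2.03 at Day 5. Its change was -2.29 (SE 0.32), and its Day 5 samples lay closer together than its Day 1 samples.

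The 3 *iglc*-named probes had a median change of -2.34, or 5.08-fold, the lowest of any immunoglobulin symbol with 3 or more probes. They were also bright, with Day 1 levels of 14.55 to 14.75 against a median of 12.6 over the tested immunoglobulin chain probes. The brightest of them, C263R031, had log2 ratios of 0.08, 0.46, 0.74 and 0.32 at Day 1 and of -1.25, -2.27, -2.69 and -1.97 at Day 5, a change of -2.44 (SE 0.36). The smallest *iglc*-named change was -1.81 (SE 0.38, C068R013), and Fish 1 had the smallest difference for all 3. The *iglc1*-named probe C141R025 had log2 ratios of 0.59, 1.93, 0.25 and -0.20 at Day 1 and of 0.30, -0.20, -0.67 and -1.25 at Day 5, a change of -1.10 (SE 0.35). Its days overlapped, with the Day 1 sample of Fish 2 far above the rest.

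The *igll5*-named probes (5 tested) had a median change of -2.02, from -2.40 to -1.26. IGLL5 is a lambda-like gene of the human genome. The brightest, C199R139, had log2 ratios of -0.06, 0.16, 1.17 and 0.57 at Day 1 and of -2.10, -2.06, -1.69 and -1.92 at Day 5, a change of -2.40 (SE 0.31), and its samples differed more at Day 1 than at Day 5. The smallest *igll5*-named change was that of C064R099 (SE 0.31).

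The brightest *igll1*-named probe, C166R162, also had the largest change of its name. It had log2 ratios of 0.75, 0.40, 0.50 and 0.72 at Day 1 and of -1.50, -1.49, -1.38 and -1.73 at Day 5, a change of -2.11 (SE 0.30). Its differences within fish ran from -2.45 to -1.88. The other 11 lay between -1.78 and -1.16 (SE 0.31, C213R099). From fish to fish, the *igll1*-named probes deviated together more than *igha2*-, *igkc*- or *ighm*-named probes, the only other names compared. Over the 8 arrays, the deviations from the day means of 2 *igll1*-named probes correlated with a median of 0.65, and 65 of the 66 pairs were positive. The median was 0.41 for pairs of *igha2*-named probes, 0.24 for *igkc* and 0.19 for *ighm*. All 12 *igll1*-named probes were above the limit on all arrays, against 9 of 17 tested *igha2*-, 13 of 16 *igkc*- and 6 of 15 *ighm*-named probes. The part of dim signal in this order was not tested. All probes share the arrays and the pool, and these correlations are a description.

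The fish with the smallest difference depended on the symbol. Among probes measured on all arrays, it was Fish 1 for 7 of 11 *ighm*-named, 9 of 15 *igha2*-named, 9 of 14 *igkc*-named and 3 of 3 *iglc*-named probes. It was Fish 2 for 7 of 12 *igll1*-named probes, whose differences in that fish ran from -1.88 to -0.13. The *igll1*-named median change was -1.52, -1.02, -1.70 and -1.64 in Fish 1 to Fish 4. In heavy chain probes Fish 2 had a median of -1.76, and the heavy chain median minus the *igll1*-named one was 0.32 in Fish 1 but -0.74 in Fish 2. This pattern was noticed in the data and was not tested, and the scan image and negative control signal of Fish 1 given above move with it.

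Transcripts of *vpreb1*, which in mammals encodes the other part of the surrogate light chain, were not among the members but were listed with 10 probes. All 10 were lower at Day 5, with changes from -1.15 to -0.48 and a median of -1.01. Their median change was -1.47, -0.32, -1.10 and -0.80 in Fish 1 to Fish 4, smallest in Fish 2 as for *igll1*. Of these *vpreb1*-named probes, only C151R085 was above the limit on all arrays, whereas all *igll1*-named probes were. Listed probes of T-cell markers (17 tested, 7 symbols) had a median of -1.34, -0.07, -0.91 and -1.30 in the same fish, with the smallest difference in Fish 2 here too. Most of these T-cell probes were at or under the limit on some arrays. Listed thrombocyte probes also had their smallest median change in Fish 2 (-0.45). Erythroid (-1.25), neutrophil (-1.66) and macrophage probes (1.37) had theirs in Fish 1, as most chain symbols did. The part of other cells in this pattern was not tested.

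**Figure D3:**
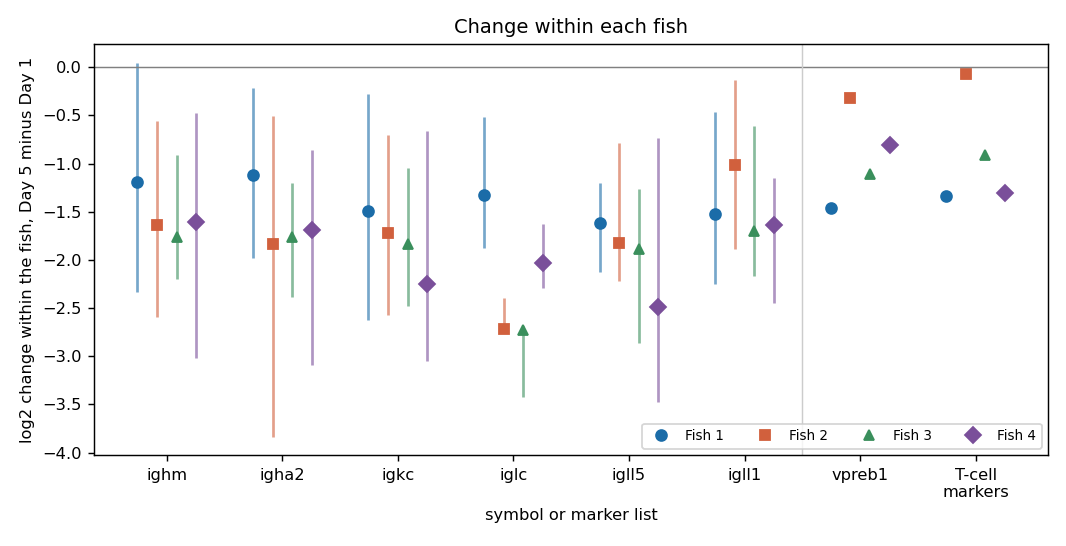
Change within each fish (Day 5 minus Day 1, log2) by symbol. Markers show the median over the probes of a symbol and lines the lowest and highest probe, and for *vpreb1* and the T-cell markers the median is shown. Fish 1 lies highest for *ighm*, *igha2*, *igkc*, *iglc* and *igll5*, and Fish 2 for *igll1* (-1.02), *vpreb1* (-0.32) and the T-cell markers (-0.07).

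The single *cd79a* probe, C157R080, had the largest change of all members. CD79A is the signalling chain of the B-cell receptor and is made by B cells at nearly all stages. Its log2 ratios were 1.16, 0.00, 1.32 and 0.56 at Day 1 (Fish 1 to Fish 4) and -0.92, -2.44, -1.73 and -2.54 at Day 5. The days did not overlap, and all 8 samples were above the limit. The difference within fish was -2.07, -2.44, -3.04 and -3.10, and the fitted change was -2.66 (SE 0.32), or 6.34-fold. It was -2.08 with slide as a fixed block in place of fish.

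Over the 8 arrays, the probes most like *cd79a* among 1620 listed probes with another symbol were *id3* (r = 0.99), 2 *sirpb1*-named probes (0.98 each), *gucy2c* (0.98) and *pde3b* (0.98). ID3 is an inhibitor of transcription factors that acts in lymphocytes. All 5 were lower at Day 5, with changes of -1.95, -2.14, -1.72, -2.47 and -2.01. Because all candidates were listed for a difference between the same days, such correlations are high in part by choice. For deviations from the day means alone they were 0.91, 0.91, 0.96, 0.93 and 0.88. The ranking over the 8 arrays already contains these deviations, so they are no separate check. Among the other members, the *igkc*-named probes C236R100 and C260R114 were most like *cd79a* (0.98 each), followed by the *ighm*-named C146R068 (0.98) and the *fcrl5*-named C188R129 (0.97). Over all members of a name, deviations correlated with those of *cd79a* by a median of 0.47 (*ighm*), 0.42 (*igha2*), 0.44 (*igkc*) and 0.46 (*igll1*). Single probes of these names ran from -0.50 to 0.93.

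The 3 *fcrl5*-named probes did not share a direction. FCRL5 is an Fc receptor-like protein found in mammals mainly on B-lineage cells. The probe C188R129 had log2 ratios of 0.34, 0.18, 0.91 and 0.45 at Day 1 and of -1.16, -1.69, -1.40 and -2.24 at Day 5, a change of -2.09 (SE 0.32). The probe C241R120 had log2 ratios of 0.30, -0.71, 0.73 and 0.28 at Day 1 and of -0.76, -1.32, -1.10 and -2.68 at Day 5, a change of -1.61 (SE 0.39). Both were lower at Day 5 in every fish, without overlap of the days.

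The third, C203R104, was higher at Day 5. Its log2 ratios were -0.50, -1.76, -1.46 and -2.04 at Day 1 and 0.59, 1.59, 0.17 and 0.41 at Day 5, and the differences within fish were 1.08, 3.35, 1.63 and 2.46. The fitted change was 2.13 (SE 0.38), or 4.38-fold. At Day 1, 2 of the 4 samples were above the limit, and at Day 5 all 4 were. Its change was 1.42 over spots above the limit in both channels.

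The sequence behind C203R104 was also named after another Fc receptor. In the study's annotation its best nucleotide match is a salmon transcript described as a low affinity immunoglobulin gamma Fc region receptor II-b-like, whereas its protein match is FCRL5. Its contig shared an exact run of at least 45 bases with the contig behind the *fcgr3*-named probe C110R168. Only 399 bases of each contig were at hand, and the run reached the end of those of C110R168. The contigs behind the other 2 *fcrl5*-named probes were not compared. The first 30 bases of the run are shown because contigs of both names hold them:
shared run of C203R104 and C110R168: tgctggagctgtgatcctggagagccctgc

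The *fcgr3*-named probe C110R168 had log2 ratios of -1.54, -2.08, -1.31 and -1.62 at Day 1 and of -0.77, 1.23, 0.66 and 0.10 at Day 5, a change of 1.94 (SE 0.39). As for C203R104, the difference was smallest in Fish 1 (0.77) and largest in Fish 2 (3.32). The *fcgr2b*-named probe C148R063 was higher at Day 5 by 1.74 (SE 0.31). Fc gamma receptors bind antibody and are found on macrophages and other leukocytes. Both probes were listed for this difference, and the shared run does not show which transcript each probe measures.

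**Figure D4:**
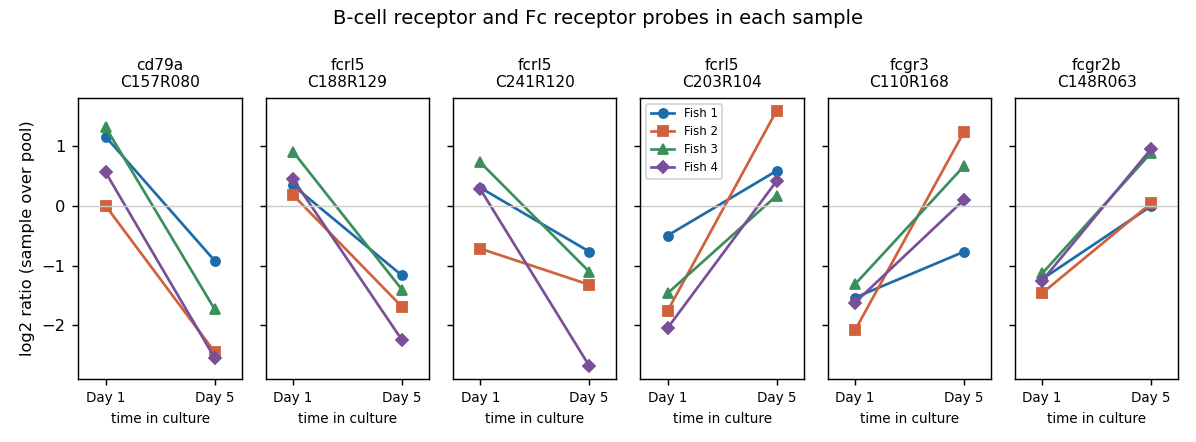
Log2 ratio of sample over pool in each of the 8 samples for *cd79a*, the 3 *fcrl5*-named probes and 2 Fc gamma receptor-named probes, 1 line per fish. The *cd79a* probe and 2 *fcrl5*-named probes go down in every fish, while C203R104 goes up, as do the *fcgr3*- and *fcgr2b*-named probes.

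Listed probes of B-cell receptor signalling genes were found in both directions. Of 32 symbols of this pathway, 9 had a listed probe, with 12 probes in all, and 9 of the 12 were higher and 3 lower at Day 5. With *cd79a* left out, 2 of 11 were lower, *bcl10* (-1.07, SE 0.36), an adaptor downstream of the receptor, and 1 of the 2 *pik3r1*-named probes (-0.82, SE 0.30), a phosphoinositide 3-kinase subunit. The *bcl10* probe was above the limit on only 1 Day 5 array, and this *pik3r1*-named probe was under it on all Day 5 arrays. Past the threshold were *cd79a*, lower, and *cd22* and *fcgr2b*, higher. Of all tested probes, 0.936% passed as lower and 1.09% as higher. CD22 is an inhibitory co-receptor of mammalian B cells. Its probe C030R065 was under the limit on all Day 1 arrays, above it on 3 Day 5 arrays, and had a change of 2.49 (SE 0.34). The kinases *syk* (1.02, SE 0.38) and *lyn* (1.03, SE 0.33, and 1.03, SE 0.42) and the B-cell signalling protein *swap70* (1.09, SE 0.30, and 0.73, SE 0.34) were higher but did not pass. These kinases act in myeloid cells too. All 12 probes were listed for their difference, so the counts describe the list and not the pathway.

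Among listed B-cell markers (5 symbols, 16 probes, each listed for its difference), 13 were lower and 3 higher at Day 5. The 3 were *cd22*, past the threshold, and both *swap70*-named probes, and 10 of the 13 were named *vpreb1*. Besides these and *cd79a*, the lower ones were 2 probes of *bach2*, a transcription factor of B cells, with changes of -1.39 (SE 0.32, past the threshold) and -0.49 (SE 0.30). None of the 7 plasma cell symbols looked up (*jchain*, *prdm1*, *xbp1*, *mzb1*, *irf4*, *sdc1* and *derl3*) had a listed probe (0 of 7), so that secreted and surface antibody cannot be set apart by these markers.

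Listed markers of other cells were read in the same samples, and 7 of 9 erythroid, 2 of 3 neutrophil and 11 of 18 macrophage probes passed the threshold in limma, whereas T-cell (adjusted p from 0.0687 to 0.406) and thrombocyte probes did not. All 17 tested probes of T-cell markers (7 of 14 symbols listed) were lower, with a median of -1.03 and a summed Cy5 level of 19992 to 49025 at Day 1 and of 8915 to 19047 at Day 5. All 9 erythroid probes (4 of 6 symbols) were lower, with a median of -1.95 and sums of 69323 to 148250 and of 14735 to 31582. All 3 neutrophil probes (2 of 6 symbols) were lower, with a median of -1.84 and sums of 16737 to 53311 and of 4884 to 6514. Both thrombocyte probes (1 of 6 symbols) were lower too, with a median of -1.11. All 18 tested macrophage probes (5 of 10 symbols) were higher, with a median of 1.59 and sums of 65402 to 95859 and of 191540 to 226520. In none of these 4 sums did the days overlap. Over all tested probes, 0.936% passed the threshold as lower and 1.09% as higher. All marker probes here were listed for their difference between the days. Nothing is therefore read from their directions, their passes or the separate sums. Only listed symbols could be counted, and the part of these cells in the immunoglobulin values was not tested.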

How the data were processed

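Total RNA of 4 Day 1 and 4 Day 5 HKL samples was amplified, and the labelled amplified RNA was hybridised to 8 two-colour arrays. The deposited scanner files hold the spot intensity in Cy5 and Cy3 as the authors read it with ImaGene. The authors' processed values are log2 ratios (background correction and loess in marray, imputed where missing), and these deposited log2 columns correlated with the scanner ratios by 0.822 to 0.906. Symbols come from the study's sequence searches. The list's own fold changes and p-values were not used.

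Here the intensities were background-corrected (normexp, offset 50), normalised within arrays by loess and turned to Cy5 over Cy3 (R 4.3.3, limma 3.58.1). Spots marked by the scanner software, or within 2 SD of local background in either channel, were left out, as were probes missing on more than 2 arrays. All tested probes were fitted with fish as a block (lmFit, eBayes, Benjamini-Hochberg, adjusted p of 0.05). The number in the labels names the fish that gave both samples. Deviations from the day means correlated by -0.05, -0.08, 0.08 and 0.03 in Fish 1 to Fish 4. Levels are log2 Cy5 intensities after Aquantile. The fit was tested on simulated data. With 4 samples a group, precision is limited by their number.

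For symbols with 3 or more probes, the probe of highest mean signal and those of largest and smallest change were named, and every probe of the others. Single probes given as exceptions or ends of a range were chosen after their values were seen. Members, lists and alternatives were chosen with earlier results of these data known. Fish 5 was not analysed here.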

Additional observations from a re-analysis of the deposited data

Results flagged for a closer look

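The median IgM-named log2 ratio of the Day 5 sample of Fish 1 was -0.65 and lay apart from the other 3 Day 5 samples, which were between -1.42 and -1.30. Its distance from the nearest of them was 0.838 of the whole range of the group, just above the critical value of Dixon's test for 4 samples. It was the 1 such sample in 39 groups of 4 samples examined, and by chance alone about 5% of such groups would be marked.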

How the results depend on the processing

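Of 161 values under other settings, 4 changed direction. In place of 784 probes past the threshold (422 higher, 53.8%), 0 passed with plain subtraction of the background or with none, 479 with marked spots kept, 543 with saturated spots kept (a setting chosen after seeing the data), 80 with slide as a fixed block and 2048 by paired SAM on the authors' processed values, and 342 to 750 when 1 fish was left out. With median centring 338 of 905 were higher. The median over the members, -1.64, was -1.90 with median centring and -1.94 on the authors' processed values, and -1.78 to -1.57 without 1 fish. IgM-named minus IgA-named, 0.149, was -0.188 over spots above the negative controls, 0.0183 with slide as a fixed block, -0.260 on the authors' processed values and -0.00401 (without Fish 2) to 0.182 without 1 fish. Heavy minus light chains, 0.130, was -0.0871 on the authors' processed values. The *cd79a* change was -2.08 with slide as a fixed block. The 3 receptor signalling probes past the threshold became 0 with plain subtraction, no correction or slide as a fixed block. The causes were not tested. Without the fish block, 918 probes passed, the members' median was -1.64 and the IgM-named minus IgA-named difference 0.0591, 57 members passed as lower in place of 53, and of the other results named here the pairing changed no call. Loess with Aquantile gave the same log ratios as loess. Probes of all immunoglobulin genes whatever their change could not be counted, since no table used here names all probes, and paired SAM was run for counts of probes only (75 of 78 members passed as lower). For 10 members the Day 5 signal was not above the limit.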
